A study of Mus musculus with 120 samples.

Results

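The Rbfox and Celf genes encode 2 families of RNA-binding proteins, and 9 of them were followed here among 21631 coding genes of the X chromosome and autosomes: Rbfox1, Rbfox2, Rbfox3 and Celf1 to Celf6. Methylation had been measured by whole-genome bisulfite sequencing, which reads methylated cytosine as cytosine and unmethylated cytosine as thymine. The mice were APP-nlgf knock-in animals (App-NLGF below), whose endogenous App gene has a humanised amyloid-beta stretch and the Swedish, Arctic and Iberian familial mutations, and wild-type animals. Hippocampus and blood were taken at postnatal weeks 3, 8 and 24, with 10 libraries per tissue, week and genotype, 5 from males and 5 from females, 120 in all. The authors' comparison of App-NLGF with wild type, run within each tissue and week with sex as a covariate, gave 6 lists of called windows of 1 kb, 8961 windows in total. Every listed window had an adjusted p under 0.1 and an absolute methylation difference of at least 10 percentage points. A member's window was one that overlapped the gene body or lay within 10 kb of it on mm10, and the members were chosen with these calls known. The genes were therefore selected on the same differences that are described below, and their counts are given without a test.

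The deposited table gives each window a difference with a raw and an adjusted p-value. Methylation levels, read coverage and values per animal were not analysed here, so the spread between animals cannot be given for any printed difference and the depth is unknown. That differences are App-NLGF minus wild type is read solely from how the comparison is named, and a reverse order would turn all directions given here. Both tissues are mixtures of cells, so a change in methylation within cells and a change in the proportions of cells cannot be told apart. The table of called windows read here holds no expression or methylation levels, so the tissue labels were not set against cell type markers.

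Rbfox proteins bind a short GCAUG element in pre-mRNA through a single RNA recognition motif and promote or repress inclusion of the neighbouring exon. Rbfox3 is mainly neuronal and is the NeuN antigen used to label mature neurons, while Rbfox2 is made in many tissues. Celf proteins bind GU-rich RNA and act in alternative splicing, mRNA decay and translation. Celf1 and Celf2 are widely expressed, and Celf3, Celf4, Celf5 and Celf6 are found mostly in the nervous system.

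The start region of Celf1 is shown because a called window lay beside it, and an internal start of Celf6 is shown as the start nearest to the window of that gene. Each sequence is from RefSeq (GRCm38.p6, plus strand, 250 bases before to 50 after the start), and capitals mark CpG dinucleotides.
Celf1 start, chr2:90940147-90940446: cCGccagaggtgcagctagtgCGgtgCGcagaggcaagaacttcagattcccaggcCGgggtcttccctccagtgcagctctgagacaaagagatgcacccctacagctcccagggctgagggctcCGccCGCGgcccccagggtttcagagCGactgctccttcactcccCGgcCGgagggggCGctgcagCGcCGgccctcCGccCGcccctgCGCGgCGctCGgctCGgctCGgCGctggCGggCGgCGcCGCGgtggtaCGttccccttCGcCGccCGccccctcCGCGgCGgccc
Celf6 internal start, chr9:59589038-59589337: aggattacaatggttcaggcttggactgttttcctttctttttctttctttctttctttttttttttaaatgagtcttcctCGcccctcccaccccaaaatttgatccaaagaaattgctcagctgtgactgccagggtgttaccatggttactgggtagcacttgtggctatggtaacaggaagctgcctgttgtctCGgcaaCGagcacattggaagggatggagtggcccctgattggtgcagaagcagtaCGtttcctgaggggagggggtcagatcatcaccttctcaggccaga

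The Celf1 start region holds 34 CpG sites, a number that 7.73% of the 32817 promoters in the RefSeq table reach. The internal start of Celf6 holds 4, which 68.6% of promoters reach, and the other listed start of Celf6, at the 5′ end of the gene, holds 31. The motif searched was CG, which reads the same on both strands. The median over these promoters is 7 CpG sites. The Rbfox1 start at the 5′ end holds 3, which 76.7% of promoters reach, the other Rbfox1 start holds 7, which 52.1% reach, and the Rbfox3 start holds 4, which 68.6% reach. A CpG count describes these 300-base stretches and not the windows, whose own bases were not read.

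Of the 9 genes, 6 had at least 1 called window in some list, where 26.7% of all coding genes did. That share rises with gene length. It was 23.6% under 100 kb, 47.5% from 100 to 500 kb and 87.7% over 500 kb, and 5 of the 9 members exceed 100 kb. The 6 genes with a window held 15 windows, 6 higher (40%) and 9 lower in App-NLGF, and 33.1% of all called windows were higher. Rbfox2, Celf3 and Celf5 had none in any list. All 15 windows lay inside the gene bodies, and none overlapped another annotated gene. No position among them was called in more than 1 list, as was so for most windows, since 18 of 8933 positions (0.202%) recurred in 2 or more lists. Blood held 11 of the 15 windows (73.3%) and hippocampus 4, where blood held 69.7% of all called windows. In hippocampus the 2 windows of week 3 were lower, and the single windows of weeks 8 and 24 were higher. In blood the 2 windows of week 3 were higher, the 7 of week 8 lower and the 2 of week 24 higher. The direction at week 24 in hippocampus depends on the 10 kb limit, since within 50 kb that list held 1 higher window and 1 lower one, near Celf3. In all 6 lists this was the direction that most windows of that list had. The median absolute difference was 12.3 points over the 15 windows and 12.6 points over all 8961.

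**Figure D1:**
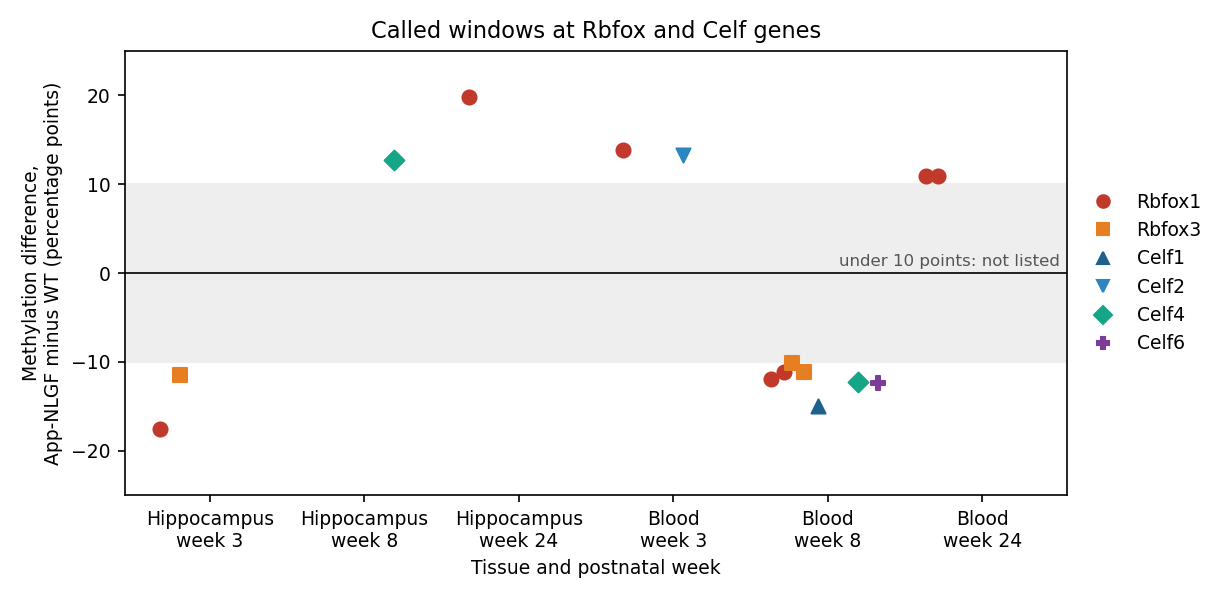
Methylation difference (App-NLGF minus wild type, percentage points) of each of the 15 called windows at Rbfox and Celf genes, by tissue and postnatal week; each point is 1 window and its marker gives the gene. Hippocampus at weeks 8 and 24 has a single point each, the values run from -17.5 points in hippocampus at week 3 to 19.8 points in hippocampus at week 24, and 7 of the 15 fall in blood at week 8.

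Rbfox1 held 7 windows in 5 of the 6 lists. It is a giant gene of 1528 kb (chromosome 16, 5884793 to 7412480, plus strand) whose product controls exons of many synaptic and ion channel genes. In hippocampus at week 3 the authors' deposited table gives -17.5 points for a window at 6536001 to 6537000, 651 kb from the 5′ end of the gene, with an adjusted p of 0.0068, the 38th smallest of the 1024 windows of that list. At week 24 it gives 19.8 points for a window at 7207001 to 7208000, 1322 kb from the 5′ end, with an adjusted p of 0.0737. These are different positions in the gene, so they do not show a reversal at 1 site.

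In blood, Rbfox1 had a window at every age. In the authors' deposited table the window of week 3 is at 7040001 to 7041000 with 13.9 points (adjusted p = 0.0295). At week 8 the table gives -11.9 points at 6044001 to 6045000 (adjusted p = 0.0164) and -11.1 points at 6436001 to 6437000 (adjusted p = 0.0968). At week 24 both windows were higher, with 10.9 points at 6132001 to 6133000 (adjusted p = 0.0181) and 10.9 points at 7215001 to 7216000 (adjusted p = 0.0104), per the authors' deposited table. The week 24 values stand near the 10-point limit of the list and rank 491 and 493 of 567 by size, but 82 and 35 by adjusted p.

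Along the gene, the 4 windows in the 5′ portion, from 10.4% to 42.6% of its length, were 3 lower and 1 higher. The 3 windows from 75.6% of its length onwards, in hippocampus at week 24 and in blood at weeks 3 and 24, were all higher. In these lists 58.6%, 63.2% and 82.5% of all windows were higher. Every Rbfox1 window had the direction of most windows in its list, so position along the gene and list cannot be told apart. The RefSeq promoter table lists a start at the 5′ end of Rbfox1 and another at 7069835, and the nearest window to the second start was that of blood at week 3, 28.8 kb away. The hippocampal and blood windows of week 24 lay 7 kb apart and both were higher. In the whole hippocampus list of week 24, 8 of 949 windows (0.843%) had a blood window of the same age within 10 kb, and 4 of these 8 matched in direction.

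**Figure D2:**
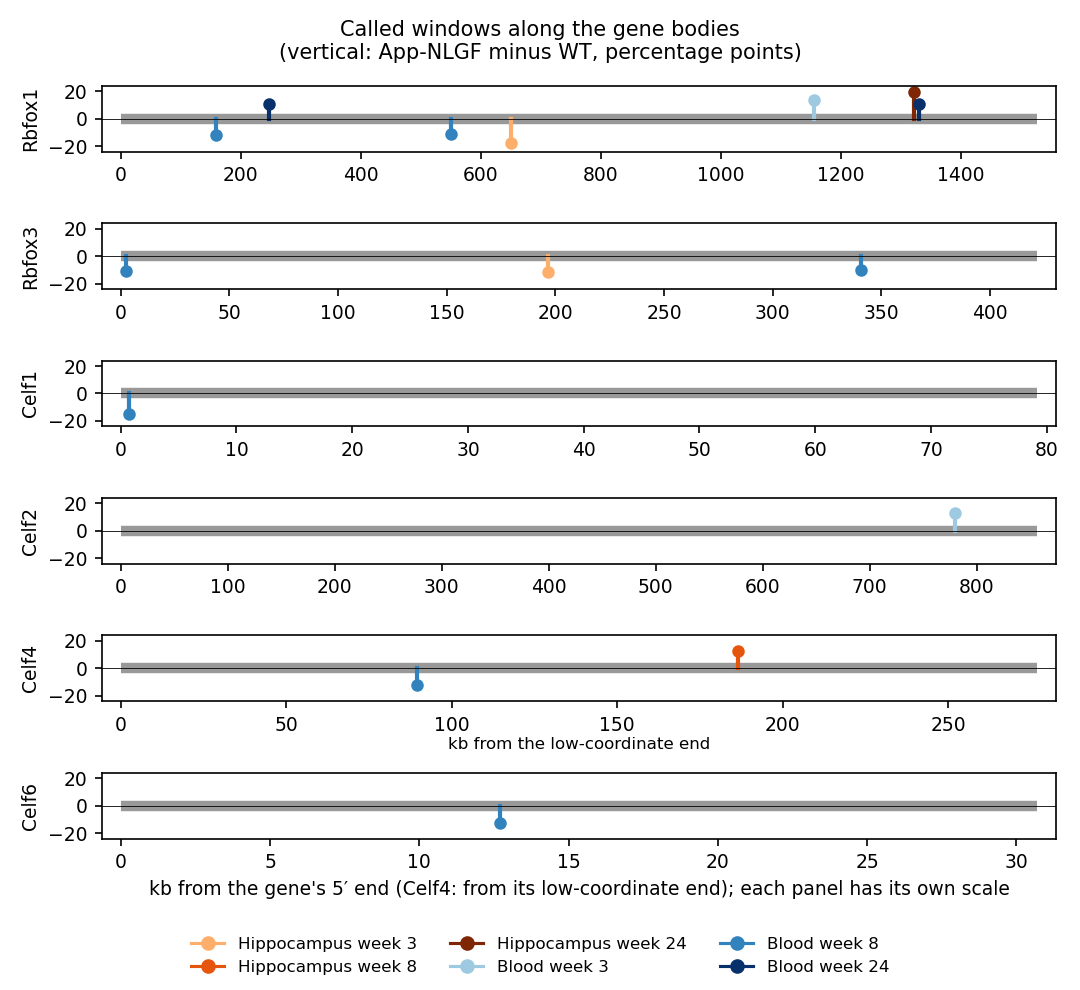
Position of each called window along its gene body (horizontal, kb from the gene's 5′ end, or from the low-coordinate end for Celf4) and its methylation difference (vertical, App-NLGF minus wild type, percentage points), with colour for tissue and week. In Rbfox1 the last 3 windows, from 1155 kb onwards, point up, as most windows of their lists do, and the Celf1 window stands 0.74 kb from the 5′ end.

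Rbfox3 held 3 windows, all lower in App-NLGF. The gene spans 422 kb on the minus strand of chromosome 11 (118489760 to 118911597). In hippocampus at week 3 the authors' deposited table gives -11.5 points at 118714001 to 118715000 (adjusted p = 0.019), 197 kb from the 5′ end and 46.0 kb from the only start listed for the gene in the promoter table. In blood at week 8 it gives -11.2 points at 118908001 to 118909000 (adjusted p = 0.0578), 2.6 kb from the 5′ end, and -10.1 points at 118570001 to 118571000 (adjusted p = 0.0341), 341 kb from it. These blood windows lay 147 and 190 kb from the listed start. Rbfox1 and Rbfox3 both had a window in hippocampus at week 3, and both windows were lower, as were 70.5% of the windows of that list. Rbfox2 (chromosome 15, 77078990 to 77308434) had no window within 10 kb.

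The Celf genes had 5 windows, 1 each in Celf1, Celf2 and Celf6 and 2 in Celf4. The Celf1 window, in blood at week 8, had the smallest adjusted p of all 15, but adjusted p-values of different lists are not on the same scale. In its own list it ranked 1242 of 4526 by adjusted p. Its raw p in the authors' comparison was 3.42e-06, larger than the 1.75e-07 of the Rbfox1 window in hippocampus at week 3. The Celf1 window was the only one of the 15 within 1 kb of a gene start or end. The authors' deposited table places it on chromosome 2 from 90941001 to 90942000 and gives -14.98 points (adjusted p = 0.00254). It begins 0.74 kb inside the gene and 0.6 kb downstream of the start in the CpG-dense sequence printed above. Of the 4525 windows of that list placed on a chromosome, 1895 (41.9%) were at most 1 kb from either boundary of a coding gene, and 99.4% of those were lower. The Celf1 window shares its position and direction with that group, and what sets the group apart was not tested here.

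Celf6, on chromosome 9 (59578287 to 59609033), had 1 window in blood at week 8 at 59591001 to 59592000, for which the authors' deposited table gives -12.3 points (adjusted p = 0.0956). It lay 12.7 kb from the 5′ end and 1.71 kb downstream of the internal start printed above. Celf2, which spans 857 kb on chromosome 2 (6539694 to 7396341), had 1 window in blood at week 3 at 6616001 to 6617000, for which the authors' deposited table gives 13.3 points (adjusted p = 0.0667). That window lay 779 kb from the 5′ end, at 91% of the gene's length, and 105 kb from the nearest of its 5 listed starts, which hold 4 to 48 CpG sites.

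Celf4, a regulator of mRNAs for synaptic and excitability proteins in the mouse brain, had windows of different sign in hippocampus and blood at the same age, as Rbfox1 did at week 3. These signs were those of most windows in each list. At week 8, 54.6% of hippocampal windows were higher and 88.9% of blood windows lower. At week 3, 70.5% of hippocampal windows were lower and 63.2% of blood windows higher. In hippocampus at week 8 the authors' deposited table gives 12.7 points at chromosome 18, 25664001 to 25665000 (adjusted p = 0.0864). In blood at week 8 it gives -12.3 points at 25567001 to 25568000 (adjusted p = 0.0974). The windows lay 96 kb apart within the 277 kb gene, so they compare different positions, and the difference between tissues was not tested. Both stood close to the adjusted p limit of 0.1.

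Against the background of all coding genes, the members with a window were read per list. In hippocampus at week 3, 2 of 9 members (22.2%) had a window, where 2.6% of coding genes had one and 1.96% had a lower one. At week 8 it was 1 of 9 (11.1%), where 1.74% had a window and 1.04% a higher one. At week 24 it was again 1 of 9, where 2.43% had a window and 1.41% a higher one. For blood at week 3, 2 of 9 had a window, where 2.79% of coding genes had one and 1.77% a higher one. At week 8 in blood, 5 of 9 (55.6%) had a window, all lower, where 19.5% had one and 18.8% a lower one. At week 24 in blood, 1 of 9 had a window, where 1.25% of coding genes had one and 1.04% a higher one. Since the members were chosen with these calls known, nothing is read from these shares.

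Long genes have more room for windows, and 5 of the 9 members exceed 100 kb. Averaging over the members the share of coding genes of the same length class (under 100 kb, 100 to 500 kb, over 500 kb) gave 9.6% in hippocampus at week 3, 7.39% at week 8 and 8.94% at week 24, and 10.9%, 29.5% and 5.5% in blood at weeks 3, 8 and 24. With 9 genes, 1 gene is worth 11.1 percentage points. Per length, the members had 4.12 windows per Mb of gene and flank, and coding genes as a whole had 5.01. By length class, coding genes had 6.59 under 100 kb, 3.2 from 100 to 500 kb and 2.84 over 500 kb. Most of the members' length lies in genes over 100 kb, so 5.01 is not a rate for genes of like length.

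**Figure D3:**
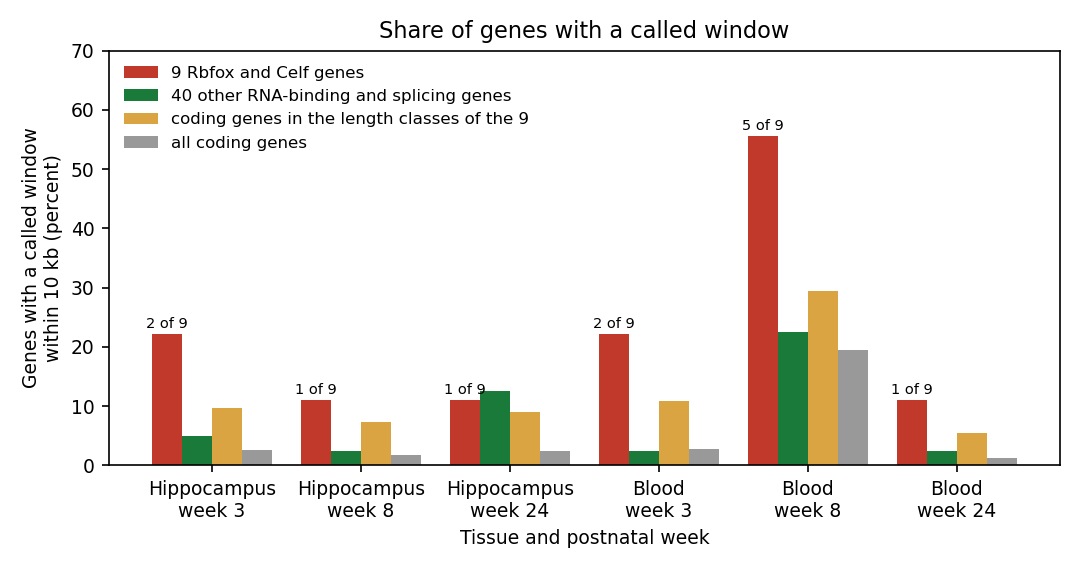
Percent of genes with a called window within 10 kb in each tissue and week, for the 9 Rbfox and Celf genes, 40 other RNA-binding and splicing genes, coding genes averaged over the length classes of the 9, and all coding genes. The members' bars stand for 1, 2 or 5 genes, and the tallest, 55.6%, is blood at week 8, where all coding genes stand at 19.5%.

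Among the 227 coding genes of at least 500 kb, 87.7% had a window in some list and the median was 2. Rbfox1 with 7 windows was reached or passed by 10 of these genes, itself included, and 7 held more. Rbfox1 carried 46.7% of the members' windows and 44.1% of their length. Its rate of 4.52 windows per Mb compares with 2.84 in its length class and with 5.5 in the 1 Mb on each side of it. Celf2, in the same class, had 1.14 per Mb. Rbfox3 and Celf4 had 6.79 and 6.74 per Mb, against 3.2 in coding genes of 100 to 500 kb and against 9 and 3 per Mb in the 1 Mb on each side. Of the 2200 genes in this class, 86 had at least the 3 windows of Rbfox3. Rbfox1 lies on the same chromosome as the mutated App gene, 77.5 Mb away from it, and chromosome 16 held 3.74% of placed windows.

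**Figure D4:**
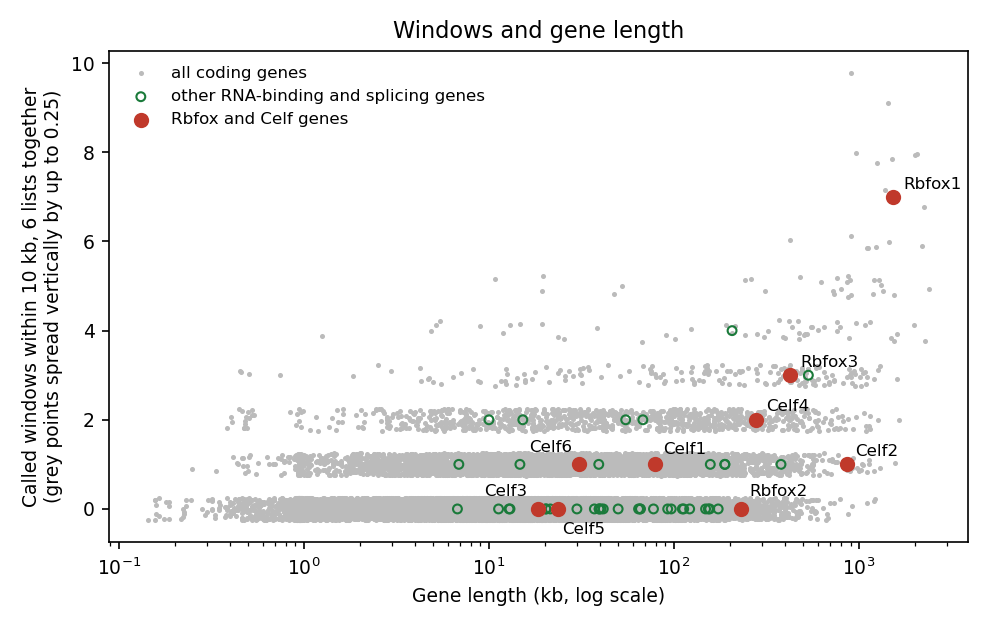
Number of called windows within 10 kb in the 6 lists together (vertical) against gene length in kb (horizontal, log scale), 1 point per coding gene. Rbfox1 stands among the longest genes with 7 windows, Rbfox3 at 3, Celf4 at 2, Celf1, Celf2 and Celf6 at 1, and Rbfox2, Celf3 and Celf5 at 0.

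A window in 5 or more lists occurred in 7 coding genes, all of at least 500 kb: Rbfox1, Macrod2, Lingo2, Auts2, Grm8, Cntnap2 and Gpc5. None had a window in all 6. Likeness to Rbfox1 was measured as the sum of absolute differences over 12 numbers, the higher and lower windows of each list, among coding genes of at least 500 kb. The nearest was Grm8, a metabotropic glutamate receptor gene, with a sum of 2 and 5 windows. It matched Rbfox1 in list and direction except for 1 window fewer in blood at week 8 and 1 fewer in blood at week 24. A sum of 4 was shared by 16 genes, of which Camta1, a calmodulin-binding transcription factor gene, and Cdh13, a cadherin gene, come first by name. The median sum over the class was 7 and the largest 13.

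Of 40 other RNA-binding and splicing genes, 13 had a window in some list (32.5%, where 26.7% of all coding genes did), with 22 windows, 7 higher and 15 lower. Per Mb they had 4.91 windows, where coding genes as a whole had 5.01, a rate that was lower in the longer length classes. The 27 genes without a window included the neuronal splicing factors Nova1, Nova2, Ptbp2 and Srrm4. In hippocampus at week 3, 2 genes had a window (5%), both lower, where 2.6% of coding genes had a window. The authors' deposited table gives -16.5 points 3.22 kb from Esrp1, an epithelial splicing regulator, and -15.3 points in Mbnl1, the muscleblind factor that opposes Celf1 in muscle splicing. At week 8 only Rbm20, known for titin splicing in the heart, had one (2.5%, where 1.74% of coding genes did), at -12.2 points in the authors' deposited table.

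At week 24, 5 of the 40 (12.5%) had a window in hippocampus, 3 higher and 2 lower, where 2.43% of coding genes had a window. By length class that share was 1.59% under 100 kb, 7.36% from 100 to 500 kb and 26% over 500 kb. The 5 genes span 532.6 kb (Khdrbs2), 378.9 kb (Msi2), 206.1 kb (Rbm20), 188.6 kb (Elavl2) and 6.9 kb (Esrp2). The differences, per the authors' deposited table, were led by -17.1 points in Khdrbs2, a neuronal splicing regulator of the STAR family, and 13.4 points in Rbm20. Elavl2, Msi2 and Esrp2 also had a window. In blood at week 3 only Rbm20 had one (2.5%, where 2.79% of coding genes did), at 18.7 points (adjusted p = 0.000146, authors' deposited table). In blood at week 8, 9 of the 40 (22.5%) had a window, where 19.5% of coding genes did. Their windows were 10 lower and 2 higher, and the genes included Cpeb3, Esrp1, Hnrnpm, Khdrbs2, Ptbp1, Rbm20, Srrm3 and Tardbp. The sizes were led in the authors' deposited table by -14.5 points in Ptbp1, the splicing repressor that neurons switch off, and -14.2 points in Hnrnpm, a partner of Rbfox proteins. In blood at week 24 only Srrm3 had one (2.5%, where 1.25% of coding genes did), at 10.4 points in the authors' deposited table. Rbm20 had a window in 4 lists, the most of these 40 genes.

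Celf1 lies in a stretch that human studies list as an Alzheimer risk locus together with Spi1. Of the 29 other genes within 250 kb of mouse Celf1, 20 were coding. Of these 20, all under 100 kb long, 2 had a window in some list. The share was 26.7% over all coding genes and 23.6% over those under 100 kb. None of the noncoding neighbours had a window. The 2 coding neighbours shared the same window. This window, in hippocampus at week 8 (chromosome 2, 90876001 to 90877000), lay 5.79 kb from C1qtnf4 and 9.19 kb from Mtch2, a mitochondrial carrier gene, and the authors' deposited table gives it 13.8 points (adjusted p = 0.00462). Spi1, the myeloid transcription factor gene, had none.

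Several windows stood close to the limits of the lists. Of the 15 windows, 7 had an absolute difference under 12 points (40.9% of all windows did) and 7 had an adjusted p over 0.05 (44.1% of all). The nearest to the 10-point limit was that of Rbfox3 at -10.1 points, and the nearest to the adjusted p limit was that of Celf4 at 0.0974. Just outside the 10 kb limit, a window 15.2 kb from Celf3 in hippocampus at week 24 had -20.6 points (adjusted p = 0.0713) in the authors' deposited table, larger than any within it. Further windows in blood at week 8 lay 38.3 and 47.0 kb from Celf6, with -11.1 points (adjusted p = 0.00174) and -10.3 points (adjusted p = 0.000102) in the authors' deposited table. Both adjusted p-values are smaller than that of any of the 15 windows. Another, 41.0 kb from Rbfox2, had -10.3 points (adjusted p = 0.0794) in the authors' deposited table.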

How the data were processed

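Per the labels' protocols, bisulfite libraries of 120 DNA samples were sequenced, and Bismark, methylKit, Trim Galore and FastQC, on mm10, are named in the submitters' processing notes. The sources used here do not give their versions, the coverage filter or the adjustment method. The authors deposited called windows with a p-value, an adjusted p-value and a methylation difference, a signed score in percentage points. With 0 columns per library, no test of this work's own was run, and calls are those of the authors' comparison across all windows.

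Windows were joined to the 21631 coding genes of the GRCm38.p6 table (same chromosome coordinates as mm10) with pandas 2.3.3 in Python 3.11.15. The join was tested on simulated data. Exons were not separated. Starts come from the RefSeq promoter table, which lists 7 of the 9 members. A window near several genes counts for each. The members and lists were chosen with earlier results of these data known. Every member and its windows are named; of the other RNA-binding genes and the neighbours of Celf1, those with a window are named, except 1 that is not reported here, the RNA-binding genes with values for the 2 largest differences per list. The Celf6 start was printed, and the length-class averages added, after the values were seen.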

Additional observations from a re-analysis of the deposited data

How the results depend on the processing

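The 15 windows were recounted under 6 settings. Gene bodies alone, runs of windows counted once and the absence of a nearer coding gene could not change any result. All 15 windows lie inside the members' gene bodies, none overlaps another annotated gene, and no pair in 1 list lies within 10 kb. These 3 settings therefore say nothing about stability. With a flank of 50 kb there were 19 windows. Hippocampus at week 24 then had 2, Rbfox1 higher and Celf3 lower, so its windows no longer went one way. Blood at week 8 had 10 in place of 7, 31.6% of all windows were higher in place of 40%, and the median absolute difference was 11.9 points. With at least 15 points, hippocampus kept 1 window at week 3 and had 0 at week 8, blood had 0 at weeks 3, 8 and 24, and the median was 18.7 points. With an adjusted p under 0.01, hippocampus had 1 window at week 3 and 0 at weeks 8 and 24, and blood 0 at week 3, 1 at week 8 and 0 at week 24. The median was then 16.2 points, with 0% of windows higher. The limits on size and adjusted p keep fewer windows by construction, 2 each. By size these were Rbfox1 in hippocampus at weeks 3 and 24. By adjusted p they were Rbfox1 in hippocampus at week 3 and Celf1 in blood at week 8. No paired analysis was possible because the deposited values are per window, with none per library. For the same reason no library could be left out, and depth behind each difference is unknown.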
